A study of Mus musculus with 16 samples.

Results

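The 10 genes described here make up a stress network around the transcription factor ATF4. Atf4, Atf5, Atf3, Ddit3, Cebpb, Cebpg and Jdp2 encode basic leucine zipper (bZIP) factors, and Trib3, Nupr1 and Chac1 are stress-induced targets of such factors. They were taken as a list of mouse symbols and matched to the Ensembl identifiers of the deposited count table. The list was chosen with earlier results of these data known, so its counts beside the shares of all genes are a description. All 10 of 10 matched 1 row each, of 43430 genes in the table, and all 10 passed the low-count filter that left 11004 genes for testing. RNA sequencing was done on bone marrow-derived macrophages of C57BL/6J mice, which were grown from marrow with mCSF, the colony-stimulating factor of macrophages, at 20 ng/mL and harvested on day 6. The cells were then kept in MEM, with 4 libraries in each of 4 groups. The groups are Dropout_LPS (no serine, with LPS), Control_LPS (serine and LPS), Dropout_untreated (no serine, no LPS) and Control_untreated (complete MEM, no LPS). LPS, lipopolysaccharide, is a bacterial surface molecule that activates macrophages through a Toll-like receptor. It was given at 100 ng/mL, 4 h before RNA was collected. How long serine was withheld is not given in the labels, nor whether the replicates are separate animals. The spread that the p-values rest on is therefore that of these libraries. Replicate 1 of each group differs from the others in Xist and Y-linked counts (given below), as male from female cells, and the spread includes that difference. Among the others the spread may be technical.

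ATF4 is the effector of the integrated stress response. When amino acids run short, the kinase GCN2 phosphorylates the initiation factor eIF2, general translation falls, and the Atf4 mRNA is translated better because upstream reading frames in its leader are bypassed. An mRNA level of Atf4 therefore shows one layer of its control. The ATF4 protein pairs with C/EBP factors on composite elements and drives genes for amino acid transport and synthesis, aminoacyl-tRNA synthetases and further stress factors. In macrophages Atf3 and Cebpb are also known as LPS-responsive genes outside that pathway.

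The composite element is shown first because it is the sequence that ATF4 and its C/EBP partners are known to bind. RefSeq promoters of the mouse build GRCm38.p6, each from 250 bases before a transcript start to 50 after it, were found for 10 of 10 genes, 13 promoters in all. All motifs were searched on both strands. The core TGATGNAA was in the promoters of 5 of 10 genes, or 5 of 13 promoters, against 3.97% of all 32851 promoters of the same 300-base length. It was also in promoters of 11 of 31 other known ATF4 target genes (35.5%). Among the 5 genes the match was TGATGTAA in Trib3 and TGATGCAA in the others. Each is printed below 5′ to 3′ on the strand of its gene, with the element, or its reverse complement, in capitals. In order they are chr1:191183425-191183454 (minus strand), chr12:85599372-85599401 (plus), chr2:152344028-152344057 (minus), chr7:126625562-126625591 (minus) and chr2:119351038-119351067 (plus).
Atf3: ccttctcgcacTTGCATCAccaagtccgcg
Jdp2: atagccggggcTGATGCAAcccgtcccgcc
Trib3: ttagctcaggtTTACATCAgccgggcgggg
Nupr1: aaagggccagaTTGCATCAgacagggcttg
Chac1: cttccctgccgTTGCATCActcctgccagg
The element lies 110 to 103 bases before the start in Atf3 and in Nupr1, 33 to 26 bases before one of 3 starts of Jdp2, 193 to 186 bases before the start in Chac1 and 15 to 22 bases after it in Trib3. Only the Jdp2 copy reads TGATGCAA along the gene's own strand. The Nupr1 window also lies inside exons of longer Nupr1 transcripts in the GENCODE annotation of the same build.

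Other elements were rarer in these promoters. TGACTCA, the AP-1 element, occurred in 1 of 10 genes, or 1 of 13 promoters, 242 to 236 bases before the start of Ddit3, against 5.20% of all promoters. TGACGTCA, the cAMP response element, TTGCNNAA, a C/EBP palindrome, and the ER stress element, CCAAT and CCACG with 9 bases between them, were in none of the 10, against 1.79%, 10.8% and 0.119% of all promoters. No promoter of the 10 genes held more than one of these motifs. For the longer context, the 250 bases before the start of Chac1 (chr2:119350992-119351241, plus strand), which has the element, and of Atf4 (chr15:80254934-80255183, plus strand), in which none of the motifs was found, are printed with any element in capitals.
Chac1: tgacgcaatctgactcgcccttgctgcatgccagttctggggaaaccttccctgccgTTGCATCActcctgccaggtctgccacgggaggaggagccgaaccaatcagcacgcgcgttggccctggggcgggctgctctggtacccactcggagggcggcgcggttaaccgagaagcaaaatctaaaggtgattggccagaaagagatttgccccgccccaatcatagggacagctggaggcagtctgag
Atf4: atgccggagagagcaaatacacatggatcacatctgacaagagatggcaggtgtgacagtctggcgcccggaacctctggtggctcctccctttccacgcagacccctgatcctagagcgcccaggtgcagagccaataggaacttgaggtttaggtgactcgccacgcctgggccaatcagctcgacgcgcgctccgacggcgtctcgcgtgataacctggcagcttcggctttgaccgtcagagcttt
A match is a stretch of letters and no measurement of binding, and elements outside these windows were not searched.

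**Figure D1:**
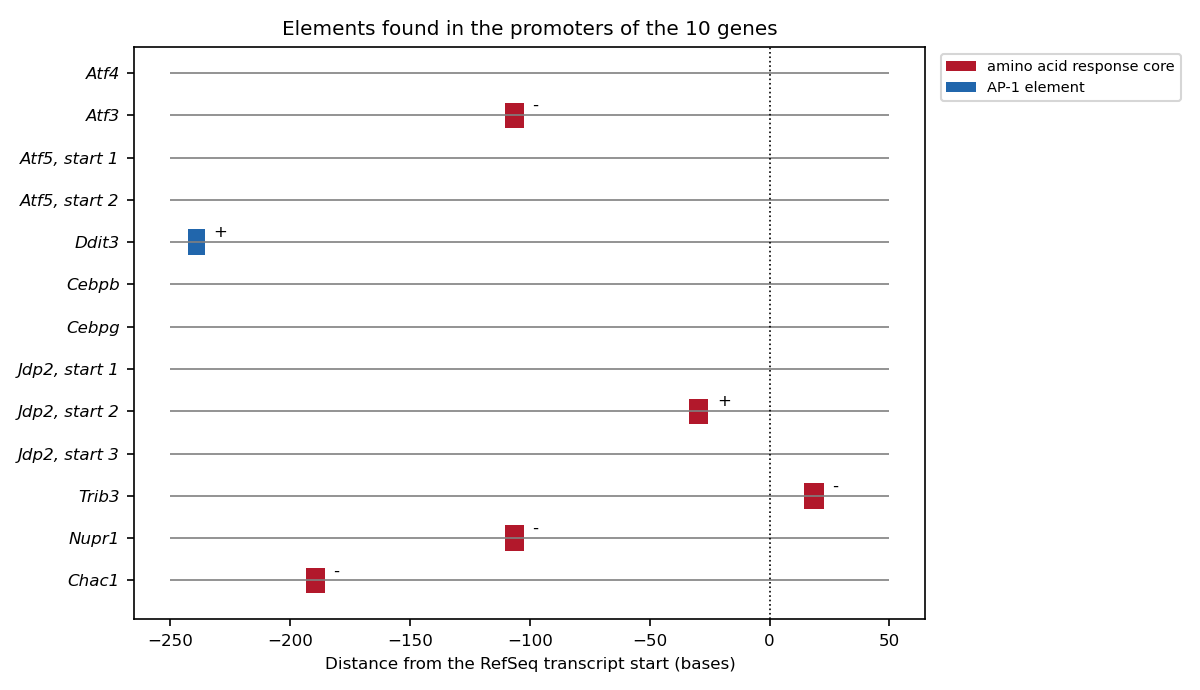
Motif matches in the 13 RefSeq promoters of the 10 genes, by distance from the transcript start in bases (dotted line at the start, plus and minus for the strand of the match relative to the gene). The amino acid response core TGATGNAA (red) is in promoters of 5 of 10 genes and the AP-1 element (blue) in that of Ddit3.

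Total counts ranged from 2871477 to 10043362 per library. The lowest, replicate 4 of Dropout_untreated, had counts for 12900 genes, its top 20 genes took 23.1% of its counts, and results that rest on it are given with and without it. In replicate 1 of each group Xist was at 0 and Y-linked genes summed to 1184 to 2391 counts, whereas the remaining 12 libraries held 351 to 1477 Xist counts and 0 or 1 Y-linked count. The 14 macrophage markers summed to between 18400 and 32700 CPM (counts relative to TMM-adjusted library sizes) in every library, with none at 0. Lyz2 alone had 10000 to 22100 CPM, so it weighs most in the sum. Single markers varied to different degrees over the libraries, Csf1r from 2080 to 3430 CPM, Cd14 from 274 to 3480 and Cx3cr1 from 3.5 to 52.5. In bulk RNA, fewer cells of a type and less RNA per cell cannot be told apart. Same-numbered libraries deviated together from their group means, so replicate numbers pair the libraries. Changes are therefore given as log2 fold changes ± SE from an unpaired edgeR quasi-likelihood model, followed by the value of the same model with the replicate number as a block wherever the block changes a call. All adjusted p-values are Benjamini-Hochberg values over the 11004 genes, a gene is called at an adjusted p under 0.05, and n is 4 libraries a group.

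Per kilobase of the deposited gene length, Cebpb had the highest level with LPS, 565 ± 80.1 CPM per kb (SD) in Dropout_LPS and 521 ± 74.7 in Control_LPS. Atf4 followed in Dropout_LPS, at 298 ± 35.9 CPM per kb, and Atf3 at 263 ± 23.1, so that their means ± SD overlap. In Control_LPS the order of the pair was the other way, with 195 ± 46.8 CPM per kb of Atf4 and 215 ± 27.8 of Atf3, again with overlapping SD ranges. In Dropout_untreated cells Atf4 stood at 171 ± 32.7 CPM per kb and Atf3 at 114 ± 22.7. The Cebpb mean there, 193 ± 157 CPM per kb, rests on replicate 4, with 428 CPM per kb against 131, 116 and 98.4 in replicates 1 to 3, all below the Atf4 mean. Control_untreated cells had 103 ± 9.95 CPM per kb of Cebpb, 101 ± 8.03 of Atf3 and 87.6 ± 19.1 of Atf4, which overlap in the same way. The other genes had means of at most 32.7 CPM per kb in every group. At the low end, Chac1 stood at 5.02 ± 2.42 CPM per kb in Dropout_untreated, where Jdp2 and Nupr1 were at 3.18 ± 1.46 and 2.93 ± 1.34, and was the lowest of the 10 in Control_untreated, at 0.864 ± 0.507.

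**Figure D2:**
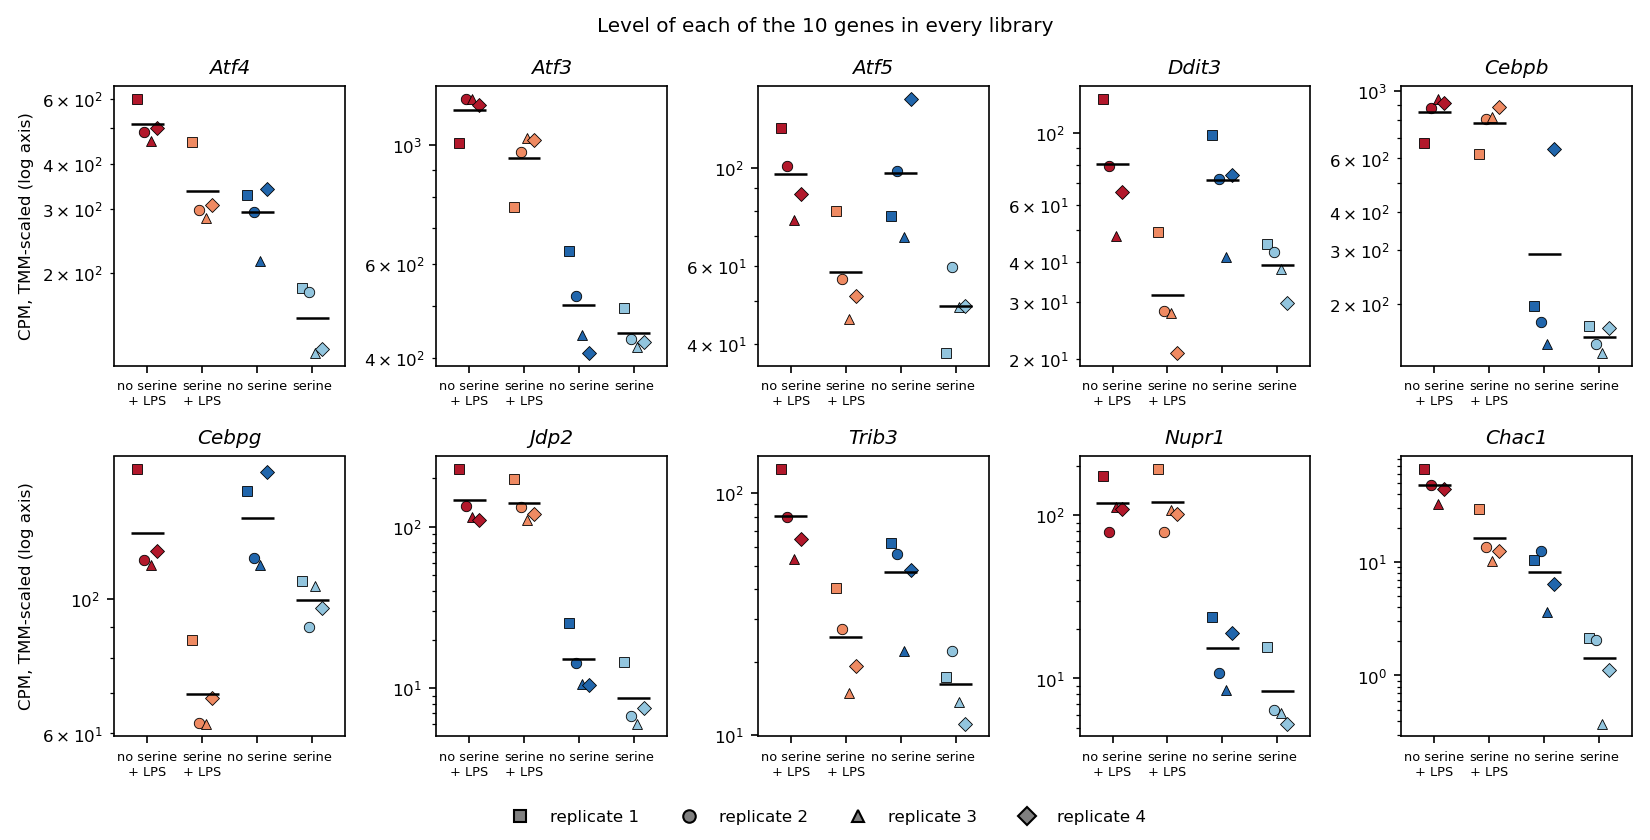
Level of each of the 10 genes in every library (CPM, log axis), with a bar at the group mean and a symbol for each replicate number. Groups run from no serine with LPS on the left to serine without LPS on the right, and Chac1 spans the widest range, 32.7 to 65.6 CPM in Dropout_LPS against 0.377 to 2.12 CPM in Control_untreated.

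The first comparison asked what serine withdrawal did in cells without LPS. All 10 genes had a positive log2 fold change, with a median of 0.89 against 0.01 over all genes tested. None passed the threshold in the unpaired model, which called 0% of genes higher, although 8 of 10 genes and 548 of 11004 had an unadjusted p under 0.05. With the replicate block Atf4, Trib3, Chac1 and Jdp2 were called higher, 4 of 10, against 0.0818% of all genes (9 genes). DESeq2 without a block also called 4 of 10, Atf4, Atf5, Trib3 and Chac1, against 0.109% of all genes. With only these 2 groups in the fit edgeR called no gene, with or without the block, and 267 and 197 genes had an unadjusted p under 0.05.

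Atf4 (ENSMUSG00000042406, mm10 chromosome 15, 80255184 to 80257540, plus strand) had 329, 294, 216 and 341 CPM in replicates 1 to 4 of Dropout_untreated, against 182, 178, 121 and 124 CPM in Control_untreated. Every library without serine was above every library with it. Its log2 fold change was 0.96 ± 0.19 (edgeR adjusted p = 0.207), or 0.97 ± 0.13 with the block (edgeR adjusted p = 0.0097). The pair of replicate 4 differed by 1.46 on the log2 scale, against 0.728 to 0.858 in the others. Without Dropout_untreated replicate 4 the block model gave Atf4 a value of 0.84 (edgeR adjusted p = 0.00045).

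Chac1 (ENSMUSG00000027313, chromosome 2, 119351229 to 119354381, plus strand) encodes a γ-glutamylcyclotransferase that breaks down glutathione. It had 10.5, 12.4, 3.59 and 6.41 CPM in Dropout_untreated and 2.12, 2.05, 0.377 and 1.11 CPM in Control_untreated. The groups did not overlap, and the Control_untreated values rest on 21, 20, 3 and 8 counts. With 2.52 ± 0.49 (edgeR adjusted p = 0.207; 2.52 ± 0.29 and 0.00325 with the block), its log2 fold change was the largest of the 10.

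Trib3 (ENSMUSG00000032715, chromosome 2, 152337422 to 152344032, minus strand), a pseudokinase that binds ATF4 and dampens its activity, had 62.2, 56.1, 22.2 and 48.2 CPM in Dropout_untreated and 17.4, 22.3, 13.7 and 11.1 CPM in Control_untreated. The groups overlapped by a single library, replicate 3 without serine, yet every replicate number showed the higher value without serine. The log2 fold change was 1.54 ± 0.36 (edgeR adjusted p = 0.55), or 1.48 ± 0.20 with the block (edgeR adjusted p = 0.0097). With the block but without Dropout_untreated replicate 4, Trib3 was at 1.38 (edgeR adjusted p = 0.0072).

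Jdp2 (ENSMUSG00000034271, chromosome 12, 85599105 to 85639878, plus strand), a bZIP repressor that pairs with Jun proteins, was the fourth gene called with the block. Its levels were 25.3, 14.3, 10.6 and 10.5 CPM in Dropout_untreated and 14.5, 6.76, 6.03 and 7.52 CPM in Control_untreated. Replicate 1 was highest in both groups, so the groups overlapped while all 4 pairs pointed the same way. The log2 fold change was 0.83 ± 0.35 (edgeR adjusted p = 0.816), or 0.81 ± 0.12 with the block (edgeR adjusted p = 0.0188). Leaving out single libraries moved the unpaired value between 0.45 and 1.21, the lowest without Dropout_untreated replicate 1 and the highest without Control_untreated replicate 1.

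The bZIP genes Atf5, Ddit3 and Cebpg were not called here in either edgeR model. Atf5 (ENSMUSG00000038539, chromosome 7, 44812257 to 44816658, minus strand), a factor translated under stress in the manner of ATF4, had 77.7, 98.1, 69.9 and 143 CPM in Dropout_untreated, against 38.2, 59.7, 48.4 and 48.9 CPM in Control_untreated. The 2 groups did not overlap, and the value was 0.99 ± 0.23 (edgeR adjusted p = 0.55). The pair of replicate 4 differed by 1.55 on the log2 scale, against 0.528 to 1.02 in the others. With the block Atf5 was at 0.96, and at 0.71 without Dropout_untreated replicate 4 (edgeR adjusted p = 0.327 and 0.238). Ddit3 (ENSMUSG00000025408, chromosome 10, 127290774 to 127296288, plus strand), which encodes the pro-apoptotic factor CHOP, had 99.1, 72.1, 41.4 and 74.2 CPM in Dropout_untreated and 45.2, 42.8, 38 and 29.8 CPM in Control_untreated, with overlap at replicate 3. Its value was 0.88 ± 0.31 (edgeR adjusted p = 0.816). With the block Ddit3 was at 0.83, and at 0.70 without Dropout_untreated replicate 4 (edgeR adjusted p = 0.327 and 0.1755). Cebpg (ENSMUSG00000056216, chromosome 7, 35046422 to 35056503, minus strand), a C/EBP family member that serves as a pairing partner of ATF4, had 151, 117, 114 and 162 CPM in Dropout_untreated and 107, 90, 105 and 96.7 CPM in Control_untreated. These groups did not overlap either, and its value was 0.44 ± 0.15 (edgeR adjusted p = 0.816). In the block model Cebpg reached an adjusted p of 0.442, and 0.045 when Dropout_untreated replicate 4 was left out, with a log2 fold change of 0.33.

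For Cebpb a single library weighed heavily, and the Nupr1 value also moved with the library left out. Cebpb (ENSMUSG00000056501, chromosome 2, 167688915 to 167690418, plus strand), a C/EBP factor of inflammatory gene transcription, had 197, 174, 148 and 644 CPM in Dropout_untreated and 169, 148, 138 and 167 CPM in Control_untreated. The log2 fold change of 0.90 ± 0.34 (edgeR adjusted p = 0.816) was 0.16 without Dropout_untreated replicate 4. Nupr1 (ENSMUSG00000030717, chromosome 7, 126623249 to 126630861, minus strand), a small chromatin-associated stress protein, had 23.7, 10.8, 8.46 and 18.9 CPM in Dropout_untreated and 15.6, 6.45, 6.16 and 5.29 CPM in Control_untreated. Its log2 fold change was 0.86 ± 0.41 (edgeR adjusted p = 0.816) and ranged from 0.50 to 1.36 over the left-out libraries, lowest without Dropout_untreated replicate 1 and highest without Control_untreated replicate 1. By pairs, replicate 4 differed by 1.78 on the log2 scale, against 0.441 to 0.717 in the others. With the block Nupr1 was at 0.86, and at 0.70 without Dropout_untreated replicate 4 (edgeR adjusted p = 0.375 and 0.0933). Atf3 (ENSMUSG00000026628, chromosome 1, 191170296 to 191218039, minus strand), a feedback repressor of inflammatory genes, showed the smallest value, 0.18 ± 0.14 (edgeR adjusted p = 0.832). Its 634, 523, 443 and 409 CPM in Dropout_untreated overlapped the 497, 435, 419 and 429 CPM in Control_untreated.

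Counted by library, 4 of 10 genes, Atf4, Atf5, Cebpg and Chac1, had no overlap between the groups and were higher without serine, against 1.46% of all genes. All 4 replicate pairs were higher without serine for 9 of 10 genes, against 8.72% of all genes, Atf3 being the exception with 3 of 4.

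The same question was asked in cells with LPS. Atf4, Atf5, Ddit3, Cebpg, Trib3 and Chac1 had log2 fold changes of 0.61 to 1.66, Atf3 and Cebpb had 0.29 and 0.12, and Jdp2 and Nupr1 lay near 0. The median over the 10 was 0.67, against 0 over all genes tested. In the unpaired model 1 of 10 genes, Cebpg, was called higher, against 0.0545% of all genes (6 genes). With the replicate block 5 of 10 were called higher, Cebpg, Trib3, Chac1, Ddit3 and Atf4, against 0.663% of all genes (73 genes).

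Cebpg had 164, 116, 114 and 120 CPM in Dropout_LPS and 85.6, 62.5, 62.3 and 68.6 CPM in Control_LPS. All libraries without serine were above all with it, and the pair differences lay close together, between 0.801 and 0.935 on the log2 scale. Its log2 fold change was 0.88 ± 0.15 (edgeR adjusted p = 0.04999), or 0.88 ± 0.11 with the block (edgeR adjusted p = 0.00267). The unpaired call sits at the threshold and was lost with relative log expression or total-count scaling and without the low-count filter (edgeR adjusted p of 0.0588, 0.0673 and 0.0602). Of the 16 fits that left out a library, 2 kept the call, those without Control_LPS replicate 1 and without Dropout_untreated replicate 4.

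Trib3 had 126, 79.6, 53.3 and 64.5 CPM in Dropout_LPS, against 40.5, 27.3, 14.9 and 19.2 CPM in Control_LPS. The groups did not overlap, and the log2 fold change was 1.66 ± 0.36 (edgeR adjusted p = 0.099; 1.68 ± 0.20 and 0.00191 with the block), the largest of the 10 here.

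Chac1 had 65.6, 47.2, 32.7 and 43.8 CPM in Dropout_LPS and 29, 13.5, 10.2 and 12.5 CPM in Control_LPS. Again no library without serine was as low as any with it. The log2 fold change was 1.53 ± 0.38 (edgeR adjusted p = 0.192), or 1.59 ± 0.21 with the block (edgeR adjusted p = 0.00283).

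Ddit3 had 128, 79.1, 48 and 65.9 CPM in Dropout_LPS and 49.4, 28.1, 27.6 and 20.8 CPM in Control_LPS. Only replicate 3 of Dropout_LPS and replicate 1 of Control_LPS crossed. The value was 1.35 ± 0.32 (edgeR adjusted p = 0.15), or 1.33 ± 0.19 with the block (edgeR adjusted p = 0.00679).

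Atf4 itself had 602, 489, 460 and 502 CPM in Dropout_LPS and 457, 299, 284 and 307 CPM in Control_LPS. The groups met without overlap, at 460 CPM in Dropout_LPS and 457 CPM in Control_LPS. The log2 fold change was 0.61 ± 0.19 (edgeR adjusted p = 0.353), or 0.63 ± 0.13 with the block (edgeR adjusted p = 0.0428). Atf5 was not called in either model of the 4 groups, with 123, 101, 76.3 and 87.3 CPM in Dropout_LPS against 79.8, 56.1, 45.7 and 51.4 CPM in Control_LPS, and its change was 0.73 ± 0.23 (edgeR adjusted p = 0.363), although all 4 pairs were higher by 0.621 to 0.841. It was called with the block once Dropout_untreated replicate 4 was left out (0.73, edgeR adjusted p = 0.0402), and with only the LPS groups and the block (edgeR adjusted p = 1.48e-14). The latter fit rests on 4 pairs and called 1208 genes higher and 1051 lower of 9989. The 4-group model with the block gave Atf5 an edgeR adjusted p of 0.215, so the smaller value depends on the spread estimated in that fit.

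Neither edgeR model of the 4 groups called any of the remaining genes. With only the LPS groups and the block, where 12.1% of all genes were called higher, Atf3 and Cebpb were also called (edgeR adjusted p = 1.05e-10 and 0.0047). The 4-group model with the block gave them edgeR adjusted p-values of 0.621 and 0.997. Atf3 had 1010, 1220, 1220 and 1190 CPM in Dropout_LPS and 767, 971, 1030 and 1020 CPM in Control_LPS, and its change was 0.29 ± 0.14 (edgeR adjusted p = 0.828). For Cebpb, 674, 876, 942 and 909 CPM in Dropout_LPS stood against 622, 807, 821 and 883 CPM in Control_LPS, a value of 0.12 ± 0.34 with a 95% interval of -0.60 to 0.84. The Jdp2 levels were 228, 134, 116 and 111 CPM in Dropout_LPS and 198, 133, 111 and 121 CPM in Control_LPS, a value of 0.07 ± 0.31 with an interval of -0.59 to 0.73. Nupr1 levels, at 174, 79.1, 112 and 110 CPM in Dropout_LPS and 192, 79.6, 108 and 102 CPM in Control_LPS, gave -0.02 ± 0.36 with an interval of -0.79 to 0.74. With the block the intervals narrowed to between -0.18 and 0.26 for Jdp2 and between -0.36 and 0.37 for Nupr1. Counted by library, 4 of 10 genes, Atf4, Cebpg, Trib3 and Chac1, were higher without serine with no overlap, against 4.27% of all genes, and 8 of 10 were higher in all 4 pairs, against 18.6%.

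**Figure D3:**
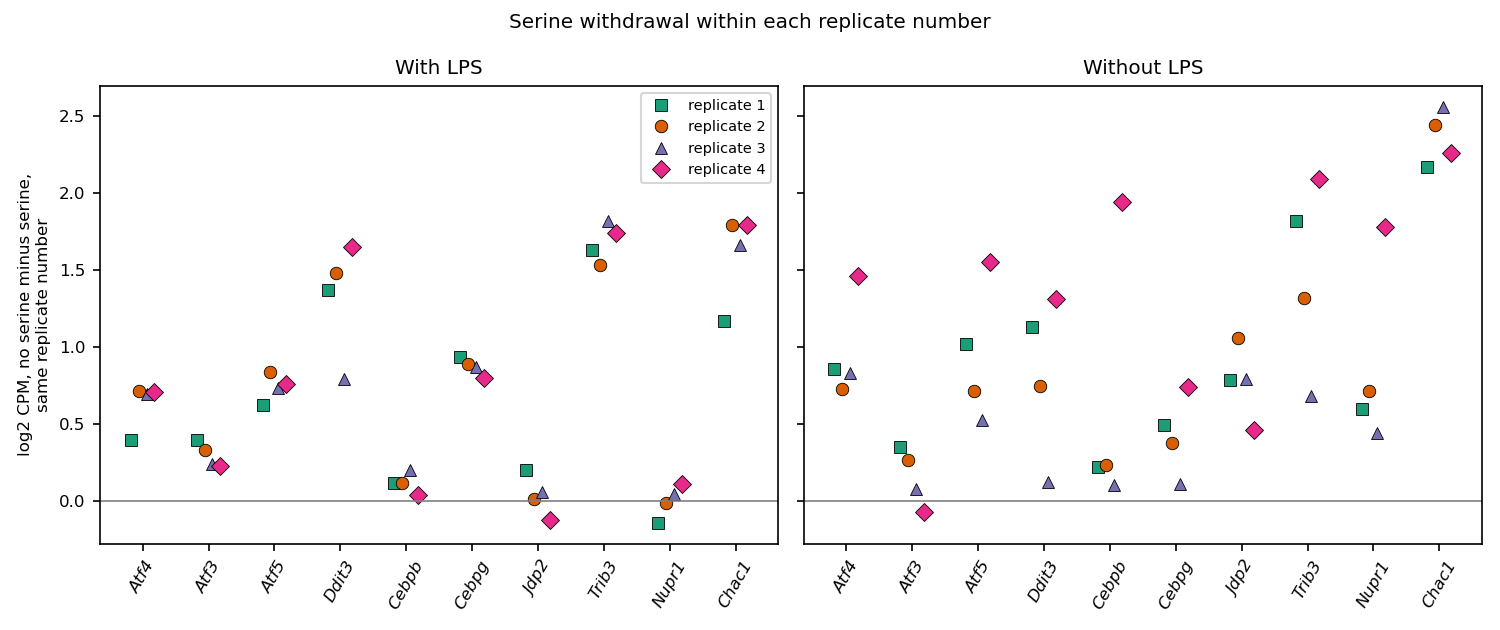
Serine withdrawal within each replicate number, as the log2 CPM difference (no serine minus serine) of the same-numbered libraries, with LPS on the left and without on the right. With LPS the differences of Cebpg and Trib3 lie between 0.801 and 0.935 and between 1.53 and 1.82, while those of Jdp2 and Nupr1 scatter around 0, and without LPS the Cebpb value of replicate 4, 1.94, stands apart.

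**Figure D4:**
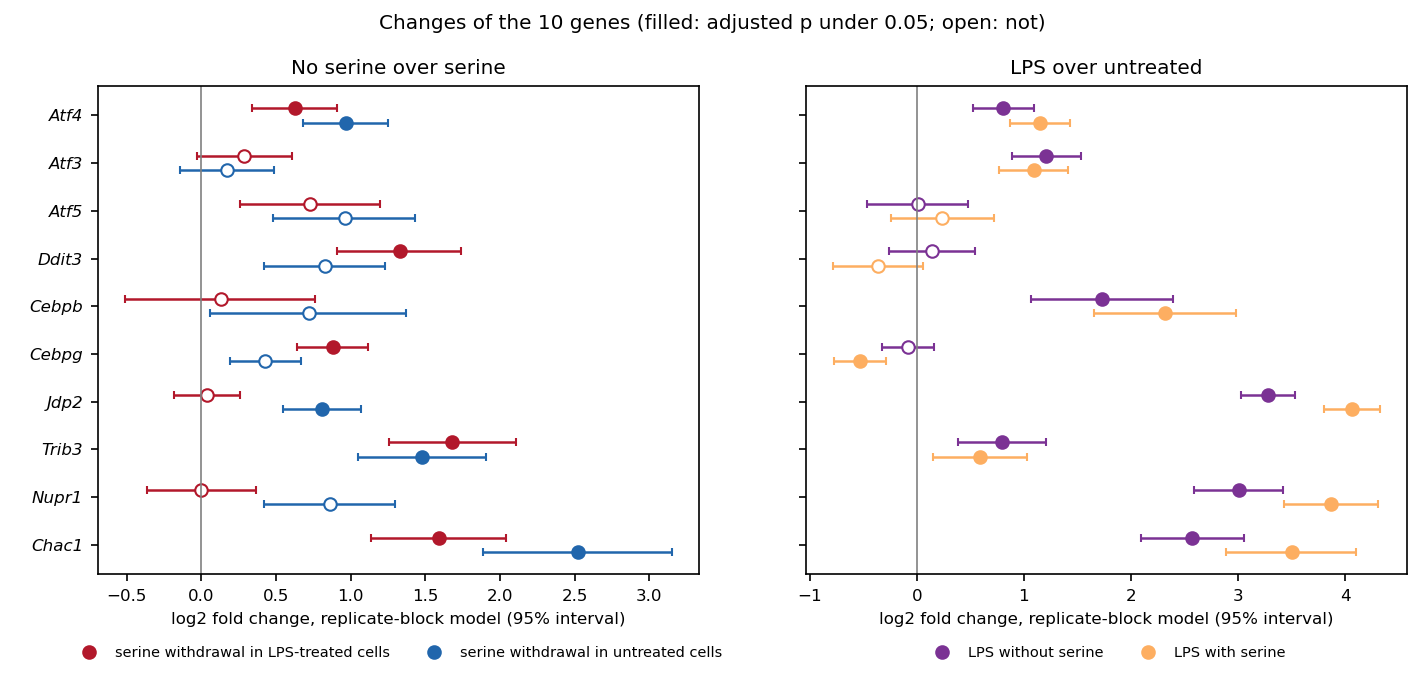
Log2 fold changes of the 10 genes with 95% intervals from the edgeR model with the replicate block, for serine withdrawal (left) and LPS (right). Filled points have an adjusted p under 0.05, which holds for 5 of 10 genes for withdrawal with LPS, 4 for withdrawal without LPS, 7 for LPS without serine and 8 for LPS with serine.

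Whether withdrawal acted differently with and without LPS was tested as the difference between the 2 changes. No gene of the 10 was called by edgeR, with or without the block, nor by DESeq2, and edgeR called 0% of all genes in both models. At an unadjusted p under 0.05 there were 0 of 10 genes in the unpaired model and 4 of 10 with the block, Jdp2, Nupr1, Cebpg and Chac1, against 253 and 465 of all 11004 genes. With the block the lowest p was that of Jdp2, whose withdrawal change with LPS minus that without LPS was -0.77 ± 0.47 on the log2 scale (edgeR adjusted p = 0.95; -0.78 ± 0.16 and 0.72 with the block), with a negative difference in all 4 replicate numbers. In the block model without Dropout_untreated replicate 4, Jdp2 (-0.82, adjusted p = 0.0133) and Cebpg (0.55, adjusted p = 0.047) passed the threshold, with 4 genes higher and 4 lower among the 11107 tested in that fit. For Chac1 the difference was -0.99 ± 0.62, and for Nupr1 -0.88 ± 0.54, both with an edgeR adjusted p of 0.95.

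The LPS comparisons asked how the same genes answered LPS in each medium. They share the untreated and LPS groups with the withdrawal comparisons, so the values stand side by side. Without serine 6 of 10 genes rose, against 27.1% of all genes, and 0 of 10 fell, against 29.7%. With serine 6 of 10 rose, against 27.6% of all genes, and 1 of 10 fell, against 28.2%. Of all called genes 47.7% were higher without serine and 49.5% with it, and with total counts as library sizes these shares were 20.4% and 20.6%. With the block the counts were 7 rising and 0 falling without serine, against 29.4% and 31.6%, and 7 rising and 1 falling with serine, against 29.7% and 30.7%, Trib3 being the added gene in both.

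Jdp2 and Nupr1 rose most. From the levels given above, Jdp2 rose by 3.23 ± 0.35 without serine (edgeR adjusted p = 6.31e-07) and by 4.00 ± 0.36 with serine (edgeR adjusted p = 7.36e-08). Nupr1 rose by 2.95 ± 0.40 without serine (edgeR adjusted p = 9.48e-06) and by 3.83 ± 0.42 with serine (edgeR adjusted p = 7.14e-07). In both media every LPS library of these genes was above every untreated one.

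Chac1 rose by 2.48 ± 0.40 without serine (edgeR adjusted p = 6.08e-05) and by 3.47 ± 0.48 with serine (edgeR adjusted p = 1.08e-05). No LPS library overlapped an untreated library of the same medium.

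Cebpb rose by 1.56 ± 0.35 without serine (edgeR adjusted p = 0.00118) and by 2.33 ± 0.36 with serine (edgeR adjusted p = 3.23e-05). Without Dropout_untreated replicate 4 the value without serine was 2.29. Atf3 rose by 1.21 ± 0.14 without serine (edgeR adjusted p = 2.14e-06) and by 1.09 ± 0.14 with serine (edgeR adjusted p = 6.15e-06).

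Atf4 rose by 0.80 ± 0.19 without serine (edgeR adjusted p = 0.00185) and by 1.15 ± 0.19 with serine (edgeR adjusted p = 7.23e-05). The call without serine depended on the library scaling. LPS libraries had TMM factors of 0.781 to 0.861 and untreated ones of 1.03 to 1.27, and with total counts alone the median of all genes shifted by -0.57 without serine and by -0.61 with it. Atf4 was then at 0.24 without serine (edgeR adjusted p = 0.262) and at 0.54 with serine (edgeR adjusted p = 0.0206).

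Atf5, Ddit3 and Cebpg were not called higher with LPS. With serine Cebpg fell by 0.52 ± 0.15 (edgeR adjusted p = 0.00911), with no overlap between the groups, and was at -0.08 ± 0.15 without serine (edgeR adjusted p = 0.677), or -0.63 (edgeR adjusted p = 0.00156) with total counts. Ddit3 was at 0.16 ± 0.31 without serine and at -0.30 ± 0.31 with serine, with adjusted p-values of 0.659 and 0.446 by edgeR, and total counts turned the first to -0.39 and took the second to -0.91 (adjusted p = 0.0199). Atf5 was at 0.00 ± 0.23 without serine and at 0.26 ± 0.23 with serine, with adjusted p-values of 0.99 and 0.366 by edgeR, and total counts took them to -0.53 (adjusted p = 0.0381) and -0.35. Trib3 was at 0.78 ± 0.35 without serine (edgeR adjusted p = 0.065; 0.80 and 0.00251 with the block) and at 0.66 ± 0.36 with serine (edgeR adjusted p = 0.137; 0.59 and 0.0221 with the block), values that total counts lowered to 0.22 and 0.05. Jdp2, Nupr1, Chac1, Cebpb and Atf3 were called higher with TMM, relative log expression and total-count scaling alike.

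By library, 6 of 10 genes were higher with LPS without overlap in each medium, Atf4, Atf3, Cebpb, Jdp2, Nupr1 and Chac1, against 25.3% of all genes without serine and 30.7% with it, and with serine Cebpg was lower without overlap, against 30.9%. Summed marker levels of other cell types stood as follows. The 7 dendritic cell markers summed to between 13.1 and 18.7 CPM in Dropout_LPS and between 18.3 and 23.2 in Control_LPS, against 5.06 to 5.94 in Dropout_untreated and 2.64 to 6.47 in Control_untreated, with Cd209a at 0 in all groups but Dropout_LPS. Stromal markers summed to between 15.6 and 49.3 CPM with LPS, against 3.20 to 25.6 CPM without it, over 7 genes of which Lum was at 0 in all groups but Control_LPS. Neutrophil markers ranged from 10.9 to 108 CPM with LPS and from 10.7 to 145 CPM without, over 8 genes, with Elane and Ly6g at 0 in both LPS groups, Mpo in Control_LPS and Ly6g in Dropout_untreated. T, NK and B cell markers reached at most 3.37 CPM, with 4 to 6 of 10 genes at 0, Cd3d, Cd3e and Cd3g in every group, and mast cell and basophil markers at most 1.81 CPM, with 3 to 5 of 6 at 0, Fcer1a and Mcpt4 in every group. Their part in the LPS results was not tested.

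Genes around the network were followed with 4 further lists. Of 40 other known ATF4 targets 33 were measured. In the withdrawal without LPS 32 of 33 had a log2 fold change that was not negative, with a median of 0.61 against 0.01 over all genes. None was called in the unpaired edgeR model, which called 0% of all genes higher. An unadjusted p under 0.05 was reached by 21 of 33, against 548 of all 11004 genes. The block called 5 of 33 higher, against 0.0818% of all genes, and DESeq2 called 5, against 0.109%. The 5 called with the block were Asns, asparagine synthetase (1.5 ± 0.13), Cars, cysteinyl-tRNA synthetase (1.09 ± 0.11), Mthfd2, a mitochondrial folate enzyme (1.56 ± 0.19), Slc7a1, a transporter of cationic amino acids (1.29), and Pck2, mitochondrial PEPCK (1.04 ± 0.17), all log2 fold changes with the block, Slc7a1 being named after its values were seen.

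With LPS 32 of 33 targets were again positive, with a median of 0.85 against 0. The unpaired model called 1 of 33 higher, Pck2, with 39.5 ± 7.40 CPM in Dropout_LPS and 14.4 ± 4.69 CPM in Control_LPS (1.45 ± 0.23, edgeR adjusted p = 0.0257). Over all genes that model called 0.0545% higher. The block called 20 of 33 higher, against 0.663% of all genes. DESeq2, which gave no adjusted p for 7 of the 33, called 18 higher, against 92 of all 11004 genes. Among the 20 were genes of serine and glycine synthesis, named after their values were seen, Phgdh (1.53, edgeR adjusted p = 0.0274 with the block), Psat1 (0.85, 0.0147) and Shmt2 (1.21, 0.00702). Besides Pck2 the lowest p-values were those of Asns (1.37 ± 0.26), Xpot, which exports tRNA from the nucleus (0.63 ± 0.12), and Psat1 (0.85 ± 0.17), with unpaired edgeR adjusted p-values of 0.0635, 0.0635 and 0.0923. The exception, named after its values were seen, was Slc7a11, the cystine transporter gene, at -0.10 ± 0.36.

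With LPS 22 of 33 targets rose and 3 fell without serine, against 27.1% and 29.7% of all genes. With serine 16 rose and 4 fell, against 27.6% and 28.2%. How these LPS counts, and those of the lists below, depend on library scaling was not tested. Slc7a11 rose by 4.41 ± 0.42 without serine and by 4.93 ± 0.43 with it, and Got1, cytosolic aspartate aminotransferase, fell by 1.53 ± 0.13 without serine and by 1.47 ± 0.13 with it. Wars, tryptophanyl-tRNA synthetase, rose by 2.26 ± 0.18 without serine and 1.69 ± 0.17 with it.

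In the other lists no gene was called for serine withdrawal. Over all 11004 genes the block called 73 higher and 25 lower with LPS, and 9 and 0 without. A count of 0 in lists of this size is therefore close to the share of all genes. Of 18 ER chaperones and XBP1 or ATF6 targets, which mark the ER branch of the unfolded protein response, none was called in either withdrawal by edgeR, with or without the block, or by DESeq2, which gave no adjusted p for 1 of them with LPS. Their medians were -0.15 with LPS and -0.03 without. In the unpaired model 4 and 2 of 18 had an unadjusted p under 0.05 with and without LPS, against 676 and 548 of all 11004 genes. Herpud1, an ER membrane protein of protein degradation, stood at 0.76 ± 0.25 with LPS and 0.71 ± 0.26 without, the highest of its list in both. With LPS 3 of 18 rose and 4 fell without serine, against 27.1% and 29.7% of all genes. With serine 4 rose and 4 fell, against 27.6% and 28.2%. Hspa5, the ER chaperone BiP, rose with LPS by 1.39 ± 0.11 without serine and by 1.26 ± 0.11 with it. Dnajb9, of the same list, changed with LPS by -1.25 ± 0.17 without serine and by -0.68 ± 0.16 with it.

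The list of eIF2 kinases and phosphatase subunits held 10 genes, among them also Eif2s1, a subunit of eIF2 itself, and the GCN2 regulators Gcn1l1 and Impact. None was called in either withdrawal by edgeR, in either model, or by DESeq2, which gave no adjusted p for 1 of them with LPS. None had an unadjusted p under 0.05 in the unpaired model, against 676 of all 11004 genes with LPS and 548 without. With LPS 4 of 10 rose and 5 fell in each medium. Over all genes 27.1% rose and 29.7% fell without serine, and 27.6% and 28.2% with it. Eif2ak2, which encodes the double-stranded RNA-activated kinase PKR, rose by 3.58 ± 0.19 without serine and 3.27 ± 0.19 with it, and Ppp1r15b, a phosphatase subunit, by 2.53 ± 0.14 and 2.62 ± 0.14. Eif2ak3, the gene of the ER stress kinase PERK, changed by -2.58 ± 0.25 without serine and -2.72 ± 0.25 with it, and Impact, an inhibitor of GCN2 activation, by -2 ± 0.25 and -1.87 ± 0.25. Of 29 other bZIP factors 27 were measured and none was called in either withdrawal by edgeR, in either model, or by DESeq2, which gave no adjusted p for 4 of them with LPS. In the unpaired model 3 of 27 had an unadjusted p under 0.05 with LPS and 1 without, against 676 and 548 of all 11004 genes. Beside the shares of all genes given above, LPS raised 14 of the 27 in each medium and lowered 6 without serine and 7 with it. Those with the lowest p were Batf (4.23 ± 0.23 without serine, 5.02 ± 0.23 with it), Batf2 (5.47 ± 0.35 and 5.05 ± 0.32), Cebpd (3.89 ± 0.29 and 4.49 ± 0.29) and, downward, Cebpa (-2.68 ± 0.16 and -3.02 ± 0.17).

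**Figure D5:**
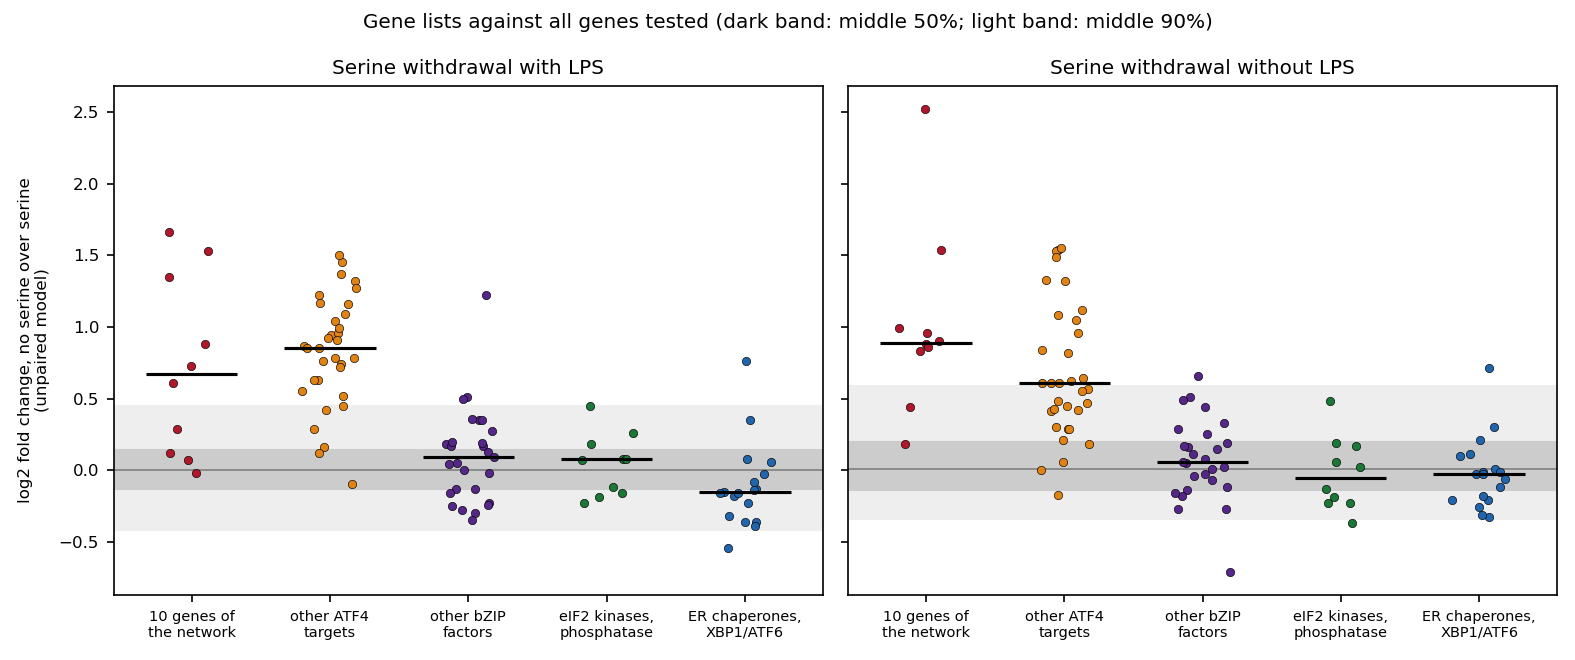
Log2 fold changes for serine withdrawal (unpaired model) of the genes in each list, with LPS on the left and without on the right. Bars are list medians, 0.67 and 0.89 for the 10 genes and 0.85 and 0.61 for the other ATF4 targets, and the bands hold the middle 50% and 90% of single genes over all genes tested, which is no measure of the spread of a median.

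The pattern of a gene over all libraries was compared by the Pearson correlation of log2 CPM over the 16 libraries, which share the LPS and serine treatments and the replicate numbers, so r is a description. The genes most like Atf4 were Cars (r = 0.988), Asns (0.976), Mthfd2 (0.958), Slc3a2 (0.943) and Gars (0.943). The Chac1 pattern was closest to Cars (0.982), Mthfd2 (0.981), Asns (0.977), Slc7a1 (0.975) and Slc3a2 (0.961). All 5 of each set are on the list of other ATF4 targets. Trib3 was closest to Lars (0.956), Eprs (0.953), Arl14ep (0.943), Mars (0.941) and Yars (0.937), of which all but Arl14ep encode aminoacyl-tRNA synthetases. For Ddit3 the closest were Nars (0.940), Xpot (0.938), Tbc1d15 (0.906), Plau (0.905) and Gpat3 (0.862). Of these genes only Yars for Trib3, and Nars and Xpot for Ddit3, are on the list of other ATF4 targets. That list, with 33 genes measured of 11004 tested, was chosen with earlier results of these data known.

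Some exons overlap genes on the other strand, and the kit does not mark strand, so reads there cannot be told apart. In the GENCODE annotation Cebpb shares 312 bases with Tmem189, Jdp2 165 with Gm47863, Atf5 82 with Il4i1 and Nup62, Ddit3 68 with Mars, and Cebpg 4 with Gm45095. On the same strand, Ddit3 shares 105 bases with another identifier of the same symbol and Cebpg 73 with Gm44836. For Mars, the methionyl-tRNA synthetase gene, the withdrawal values were 0.84 ± 0.16 with LPS and 0.63 ± 0.16 without (edgeR adjusted p 0.0635 and 0.816; 0.00282 and 0.0636 with the block). Il4i1 changed with LPS by 3.88 ± 0.58 without serine and 5.16 ± 0.59 with it, and Tmem189 by -0.61 ± 0.10 and -0.70 ± 0.10. Part of these reads may be counted in either gene, and how many was not tested.

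In the authors' deposited table for withdrawal with LPS, Ddit3 (1.35), Cebpg (0.88), Trib3 (1.66) and Chac1 (1.53) are among 65 genes marked as higher, 4 of 10 against 0.596% of genes. Atf5 and Atf4 have adjusted p-values of 0.0103 and 0.0213 in that authors' deposited table and are not marked, so the mark does not follow a threshold of 0.05 on the adjusted p alone, and its rule is not given in the sources used here. The authors' deposited table for withdrawal without LPS marks Trib3 (1.55, adjusted p = 0.0023) and Chac1 (2.52, adjusted p = 0.000291) among 6 genes, 2 of 10 against 0.0520% of genes. For LPS without serine the authors' deposited table marks 6 of the 10 as higher, against 19.1% of genes, and for LPS with serine 6 as higher and 1 as lower, against 27.9% and 27.5%.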

How the data were processed

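Bulk RNA-seq libraries of 16 samples, 4 in each of 4 groups, were analysed from the deposited gene counts. Per the submitters' processing notes, the tools were Trimmomatic 0.33, STAR, SAMtools, HTSeq and edgeR with mm10. The strand setting and annotation of the counting are not given in the sources used here, and per the labels' protocols the kit was NEBNext Ultra RNA, which does not mark strand. The authors deposited whole-number counts per gene with a gene length in bases, and tables of their own comparisons with log2 fold changes and adjusted p-values per the file headers. Symbols were matched to 42462 of 43430 identifiers. A further 24 columns of values that match no sample analysed here were not used.

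From the counts, edgeR 4.0.16 (R 4.3.3, limma 3.58.1) with TMM scaling, its default low-count filter and robust quasi-likelihood fits gave two-sided tests from 1 model of the 4 groups, with Benjamini-Hochberg adjustment over 11004 genes. CPM used TMM-scaled library sizes, and log2 CPM a prior count of 2. Depth was 2871477 to 10043362 counts per library, and the common dispersion of 0.0438 corresponds to a biological coefficient of variation of 20.9%. No 2 of the 120 library pairs agreed within counting noise (lowest chi-square per degree of freedom 2.04).

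Replicate numbers, from the sample titles, pair the libraries. Deviations from group means of same-numbered libraries correlated at 0.185 to 0.609 for withdrawal without LPS, 0.333 to 0.66 with LPS, 0.125 to 0.397 for LPS without serine and 0.217 to 0.415 with serine. Different numbers gave -0.373 to 0.141.

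The alternatives were the block, 2-group fits, relative log expression and total-count scaling, no filter, DESeq2 1.42.0 and left-out libraries. The scripts were tested on simulated data. Named genes were the 10 genes, up to 4 of each further list with the lowest p in a comparison, and the 5 genes most correlated with each of Atf4, Ddit3, Trib3 and Chac1. The members and lists were chosen with earlier results of these data known. Promoter sequences are from RefSeq, and exon overlaps from GENCODE.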

Additional observations from a re-analysis of the deposited data

Results flagged for a closer look

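Of 40 sets of 4 libraries, 1 for each gene in each group, 5 held a library far from the other 3, where chance flags about 1 in 20 sets. Cebpb was at 644 CPM in Dropout_untreated replicate 4, against 148 to 197 CPM in the other libraries of that group. Atf4 was at 457 CPM in Control_LPS replicate 1, against 284 to 307 CPM in the others. Atf3 was at 1010 CPM in Dropout_LPS replicate 1, below the 1190 to 1220 CPM of the others. Cebpg was at 164 CPM in Dropout_LPS replicate 1, against 114 to 120 CPM in the others. Nupr1 was at 15.6 CPM in Control_untreated replicate 1, against 5.29 to 6.45 CPM in the others. Replicate 1, the library with Y-linked counts in each group, was the highest of its group for 8 of 10 genes in Dropout_LPS, 8 in Control_LPS, 5 in Dropout_untreated and 8 in Control_untreated, against 32.5%, 32.2%, 29.9% and 36.6% of all genes. The part of this difference in the results was not tested beyond the fits with the replicate block and without replicate 1.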

How the results depend on the processing

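For withdrawal without LPS, 0 of 10 genes were called in the unpaired model, 4 with the replicate block, 4 by DESeq2 and 5 with the block but without Dropout_untreated replicate 4. For withdrawal with LPS, 1 of 10 was called in the unpaired model, 5 with the replicate block, 8 with the block and only these 2 groups, 4 by DESeq2 and 6 with the block but without Dropout_untreated replicate 4. There it was 0 with relative log expression size factors, 0 with total counts, 0 without the filter, 0 without replicate 1 of all groups and 0 to 1 when a library was left out. For the difference between the withdrawals 2 were called with the block but without Dropout_untreated replicate 4, against 0, in a fit that called 4 higher and 4 lower of 11107 genes. Over all genes, withdrawal with LPS gave 6 higher and 1 lower in the unpaired model, 73 and 25 with the block, 24 and 11 with only these 2 groups, 1208 and 1051 with these groups and the block, 92 and 18 by DESeq2 and 553 and 369 with the block but without Dropout_untreated replicate 4. Withdrawal without LPS gave 0 in the unpaired model, 9 higher with the block, 12 higher and 1 lower by DESeq2 and 70 and 9 with the block but without Dropout_untreated replicate 4. LPS gave 1686 higher and 6566 lower genes without serine and 1666 and 6407 with serine when total counts were used, against 2984 and 3266 and against 3041 and 3098. Without the low-count filter the median of all genes for LPS without serine shifted by 0.12, and 54.9% of calls were higher.

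Directions turned for the following log2 fold changes, none of which was called in the unpaired model. Atf5 for LPS without serine, at 0.00, was called at -0.53 with total counts (edgeR adjusted p = 0.0381), was at -0.25 without replicate 1 of all groups and at -0.02 with only these 2 groups, and ranged from -0.13 to 0.24 over the left-out libraries. For withdrawal with LPS, Jdp2 ranged from -0.24 to 0.28 and Nupr1 from -0.28 to 0.30 over the left-out libraries, and they were at -0.02 and 0.04 without replicate 1 of all groups, Nupr1 also being at 0.00 with the block. For LPS with serine, Atf5 was at -0.35 with total counts and at -0.07 without replicate 1. For LPS without serine, Ddit3 was at -0.39 with total counts and ranged from -0.16 to 0.37, and Cebpg ranged from -0.22 to 0.01, was at 0.00 without the filter and was at 0.03 with the block but without Dropout_untreated replicate 4. For the difference, Trib3 ranged from -0.18 to 0.44 and Atf5 was at 0.02 with the block but without Dropout_untreated replicate 4. Without a turn of direction, Trib3 for LPS without serine was called in 3 of the 16 fits that left out a library. These were the fits without Dropout_LPS replicate 3, Control_LPS replicate 1 or Dropout_untreated replicate 1. It was also called with the block (0.80, edgeR adjusted p = 0.00251). The cause was not tested in any of these cases. The block changed no call of the 10 genes other than those given with their values. Chac1 in Control_untreated rests on 52 counts over 4 libraries, which limits its fold changes.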
